A study of Arabidopsis thaliana with 18 samples.

Results

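The comparison set all 6 arrays of an HSFA6b overexpressor against all 6 arrays of its wild type, with treatment as a block, to find transcripts that differed between the genotypes whatever the treatment. These 12 arrays were chosen by genotype label from the 18 of the series. The plants were whole Arabidopsis thaliana seedlings, 7 days old, grown at 22 °C on MS medium with sucrose. The wild type was Col-0, and the other line was HSFA6b-OE, which overexpresses HSFA6b. Each genotype was kept at 22 °C as a control, exposed to a heat shock of 37 °C for 1 h, or exposed to 150 mM NaCl for 6 h, with 2 biological replicates in each of the 6 groups. The labels give no promoter for the transgene and no number of independent lines, so HSFA6b-OE may be 1 line, and line and transgene cannot be told apart. Values of another genotype, HSFA6b-RD, were set beside the results as a description only, since its differences share the Col-0 arrays. It is taken as a dominant-negative line, which the sample titles do not state. In whole seedlings, a change in the number of cells of a type and a change in RNA per cell cannot be told apart.

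Heat shock factors are transcription factors that bind heat shock elements in the promoters of chaperone genes. Class A factors, to which HSFA6B belongs, carry an activation domain and switch on small heat shock proteins and larger chaperones when proteins unfold, and class B factors such as HSFB1 mostly act as repressors. HSFA6B is known to be induced by abscisic acid (ABA), salt and drought, and has been placed between ABA signalling and heat tolerance, with the transcription factor gene DREB2A among its reported targets. Overexpression therefore bears on chaperone genes, on the DREB2 branch, and on ABA-responsive genes such as those of late embryogenesis abundant (LEA) proteins.

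Transcripts were measured on an Affymetrix array of 22810 probe sets as a scaled signal, given here in arbitrary units. Each probe set also carries a call of Present, Marginal or Absent against background. A probe set entered the test if at least 1 of the 6 groups had it Present in both replicates, which 17228 did. The share of Present calls per array ran from 63.3% to 73.6%. The treatments were visible in HSP101, a chaperone that pulls apart protein aggregates: its signal in Col-0 was 31.4 and 62.0 in control, 43144.4 and 38064.4 after heat shock, and 16921.0 and 16031.5 after NaCl. The labelled tissue was met by markers of both leaf and root. LHCB4.1, a light-harvesting protein of photosystem II, was Present on 6 of 6 arrays of each genotype, and SCR, a root patterning factor, on 5 of 6 Col-0 and 6 of 6 HSFA6b-OE arrays. File names place WT heat 1, WT NaCl 1 and OE NaCl 1 in a second array series. The replicate difference had an SD over probe sets of 0.898 log2 units in heat-shocked Col-0 and 0.899 in NaCl-treated Col-0, against 0.488 to 0.765 in the other groups.

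A single probe set passed the test over all treatments. It was 258325_at, higher in HSFA6b-OE, and 0 of the 17228 probe sets were lower. The array files describe it as a putative heat shock protein similar to heat shock transcription factor 1, and the tables used here assign it no gene. The tables used here leave 8730 probe sets without a gene and match none to HSFA6B, so a level of HSFA6B under its own name is not given, and whether an unassigned probe set measures it cannot be told. The test was limma's moderated test with Benjamini-Hochberg adjustment over all 17228 probe sets and a threshold of 0.05, and its percent called was 0.0058%.

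In control seedlings, the signal of 258325_at was 22.5 and 27.8 in Col-0 and 1652.1 and 1448.7 in HSFA6b-OE. After heat shock it was 109.0 and 50.2 in Col-0 and 3458.4 and 2548.7 in HSFA6b-OE. After NaCl it was 329.0 and 1306.7 in Col-0 and 7692.5 and 8274.7 in HSFA6b-OE. The genotypes did not overlap in any treatment, every array was Present, and the lowest HSFA6b-OE array (1448.7) lay above the highest Col-0 array (1306.7).

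The pooled difference of 258325_at was 4.96 log2 units (SE 0.403, 95% interval 4.09 to 5.84, 6 against 6 arrays, limma adjusted p = 0.000394), or 31.1-fold (17.0 to 57.1). By treatment it was 5.95 in control, 5.33 after heat shock and 3.60 after NaCl (SE 0.556 each). The within-treatment test passed in control (limma adjusted p = 0.00605) and after heat shock (limma adjusted p = 0.0171), and not after NaCl (limma adjusted p = 0.790), the treatment in which Col-0 itself was highest. Whether the difference varied with treatment gave an unadjusted p of 0.0342 and a limma adjusted p of 1. In HSFA6b-RD the same probe set read 3447.2 and 4120.5 in control, 11842.9 and 9189.9 after heat shock, and 12182.7 and 12133.5 after NaCl, above every Col-0 array. The probe set passed in each of the 12 fits that left out 1 array, and did not pass when the control arrays (limma adjusted p = 0.102) or the heat arrays (limma adjusted p = 0.186) were all left out.

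**Figure D1:**
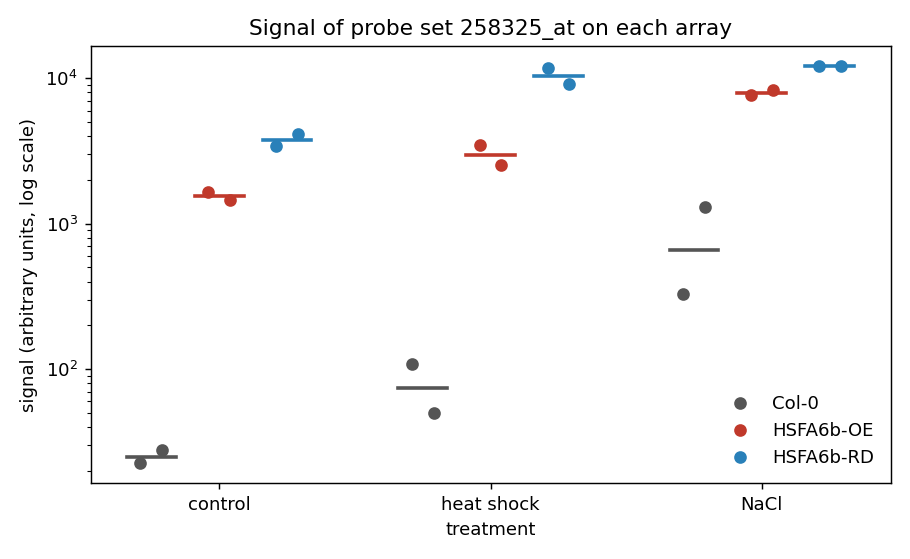
Signal of probe set 258325_at (arbitrary units, log axis) on each array, by treatment and genotype; points are single arrays and bars are the mean of the 2 log2 values. HSFA6b-OE lay between 1448.7 and 8274.7 and Col-0 between 22.5 and 1306.7.

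Over all treatments, 579 probe sets (3.36%) had an unadjusted p under 0.05, where 5% is expected if nothing differs. Of these, 409 (2.37%) were higher in HSFA6b-OE and 170 (0.987%) lower, against 768 and 345 with treatment by replicate number as blocks. This split was not stable: quantile normalization gave 312 and 267, and leaving out 1 array gave 221 (without OE heat 2) to 741 (without WT NaCl 1) higher and 69 (without OE heat 1) to 328 (without WT NaCl 1) lower. The median difference over all tested probe sets was 0.03 log2 units, and the median 95% interval reached 0.44 to either side. This interval is unadjusted, so smaller differences were mostly not detectable with 12 arrays even before adjustment. It is not the limit of the adjusted test, which was not determined and lies higher. A pooled difference of at least 1 log2 unit was held by 168 probe sets (0.975%), 125 higher (0.726%) and 43 lower (0.25%). Of these, only 258325_at passed the adjusted test. After 258325_at, the next smallest limma adjusted p was 0.274, held by 248551_at, described as a putative protein (difference 0.94), and by 266319_s_at, described as a putative beta-ketoacyl-CoA synthase (0.90).

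**Figure D2:**
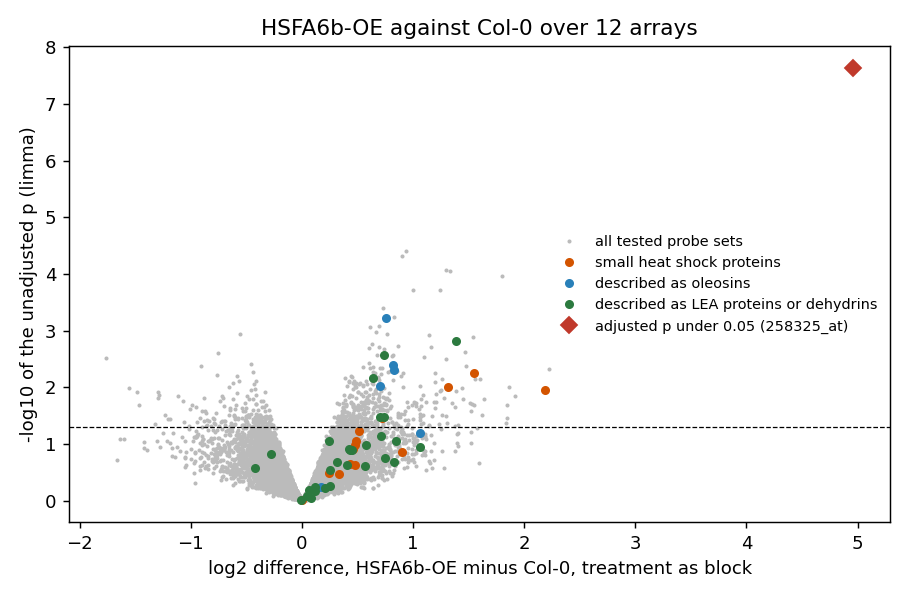
Pooled log2 difference (HSFA6b-OE minus Col-0, x axis) against the significance of limma's test (y axis, -log10 scale, unadjusted) for 17228 probe sets; the dashed line marks 0.05 and coloured points are 3 gene lists. 258325_at lies alone at 4.96, and the small heat shock protein, oleosin and LEA points lie mostly to the right of 0.

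Without 258325_at, the within-treatment differences of 17227 probe sets correlated at Pearson r = 0.03 between control and heat shock, 0.009 between control and NaCl, and 0.064 between heat shock and NaCl. These pairs share no arrays, and the points are probe sets, not replicates. The same sign in all 3 treatments was held by 2661 probe sets on the higher side (15.4%) and 1819 on the lower (10.6%). When a treatment was left out and probe sets were chosen at an unadjusted p under 0.05 from the other two, the left-out treatment had the same sign for 53% of 451 higher probe sets (control left out), 59.5% of 185 (heat left out) and 65% of 600 (NaCl left out). The share of all tested probe sets above 0 in those treatments was 50.5%, 51.9% and 58.1%. For probe sets chosen as lower, the shares with the same sign were 52.1%, 47.6% and 47.6%, beside 49.5%, 48.1% and 41.9% of all tested.

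In 73 probe sets (0.424%) both HSFA6b-OE arrays lay above both Col-0 arrays in every treatment, and in 35 (0.203%) they lay below. In single treatments, 14.7% (control), 22.9% (heat shock) and 12.3% (NaCl) of probe sets lay above without overlap. Those below were 13.6%, 20.5% and 6.73%. No count expected if nothing differs was set beside the 73 and 35, so they are a description only. The median pooled difference was 0.66 among the 73 and -0.43 among the 35, and 62 and 25 of them had an unadjusted p under 0.05. The same arrays chose these probe sets, so these values follow from the choice and lend no support. In HSFA6b-RD, 17 of the 73 had the same sign in every treatment and 26 the opposite sign. Among the 35 these counts were 12 and 0. No share over all tested probe sets was set beside these counts. The HSFA6b-RD differences use the same Col-0 arrays that chose the probe sets, which favours the same sign. The counts are therefore a description and show no effect common to the lines. Among matched genes of these sets that are not described below, the 2 with the largest difference on each side are given. AT3G28270, similar to the protein At14a, had a pooled difference of 1.92 (control 1.47, heat shock 2.93, NaCl 1.35). AT5G22460, Present on 4 HSFA6b-OE and 2 Col-0 arrays, had 1.30 (0.90, 1.65, 1.33). On the lower side, AT5G45210, described as like a disease resistance protein, had -1.48 (-1.03, -0.57, -2.85) and was Present on 3 arrays of each genotype. AT1G54450, similar to a regulatory subunit of protein phosphatase 2A, had -0.91 (-0.22, -1.99, -0.52) and was Present on 2 arrays of each. These 4 were chosen after their values were seen, and none passed the limma test.

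No probe set with 1 assigned gene passed, so the 10 genes with the smallest p and the same sign in all treatments are described on each side; all 20 failed the test. On the higher side, the limma adjusted p ran from 0.306 to 0.991. AT1G73040, a jacalin-like lectin, read 112.8 and 165.7 in control Col-0 and 197.9 and 261.3 in control HSFA6b-OE. After heat shock it read 202.0 and 240.7 in Col-0 and 838.7 and 1087.3 in HSFA6b-OE, and after NaCl 122.3 and 92.8 against 224.7 and 212.3. No group pair overlapped, and the pooled difference was 1.29 (SE 0.227, limma adjusted p = 0.306). In HSFA6b-RD it was called Absent on all arrays, at 4.2 to 52.2.

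BGLU19, a beta-glucosidase of the family that hydrolyses glycosides, read 909.5 and 1335.3 in control Col-0 and 3522.1 and 2254.0 in control HSFA6b-OE. After heat shock the values were 816.5 and 531.2 against 2445.9 and 1518.5, and after NaCl 133.7 and 124.7 against 152.4 and 339.3. The genotypes again did not overlap within a treatment, with a pooled difference of 1.24 (SE 0.239, limma adjusted p = 0.415). In HSFA6b-RD the difference of BGLU19 from Col-0 was 0.10 in control, 1.37 after heat shock and 0.85 after NaCl. A second beta-glucosidase-like probe set, 251229_at, had 1.33 (SE 0.235, limma adjusted p = 0.306). In HSFA6b-RD this second one was at -3.17 in control, -1.03 after heat shock and -1.15 after NaCl.

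UGT73C1, a glucosyltransferase of small molecules, was Present on 5 HSFA6b-OE and 2 Col-0 arrays and differed by 1.81 (SE 0.326, limma adjusted p = 0.314). After heat shock it read 120.6 and 201.6 in Col-0 and 248.9 and 255.2 in HSFA6b-OE. Col-0 had no Present array in control, where 1 of 2 HSFA6b-OE arrays was Present and the mean was at least 3.56-fold higher. It also had none in NaCl, where both HSFA6b-OE arrays were Present and the mean was 3.49-fold higher. The NaCl value is an estimate (1.80 log2 units, SE 0.373) and not a lower bound. The Absent Col-0 signals there lay above the lowest signal called Present on those arrays. In HSFA6b-RD its signal was 1.5 to 26.2, Absent on every array.

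The other higher genes had smaller values. AT3G22490, of the LEA family that protects dried cells, differed by 1.39 but was Present on only 2 HSFA6b-OE and 1 Col-0 arrays. AT1G02700, described as unknown, differed by 1.17, and AT1G04560, also unknown, by 0.86. AT5G55050, a GDSL-type lipase, differed by 0.67, and PWD (AT4G24450), described as like protein R1 of Solanum tuberosum, by 0.63. AT1G80130 differed by 0.62 and bZIP44, a transcription factor with a basic leucine zipper, by 0.60.

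On the lower side the limma adjusted p was 0.991 for all 10 genes. QQS, a gene without relatives outside its genus that is known to affect starch content, read 233.0 and 146.7 in control Col-0 and 145.2 and 98.9 in control HSFA6b-OE. After heat shock it read 570.0 and 317.6 against 38.3 and 83.4, and after NaCl 558.9 and 98.2 against 115.1 and 42.8, where both HSFA6b-OE arrays were Absent. The groups overlapped in NaCl, and the pooled difference was -1.76 (SE 0.481). In HSFA6b-RD the difference from Col-0 was -0.77 in control, -2.76 after heat shock and -1.83 after NaCl.

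AT1G70880, described as similar to a ripening-induced protein, had -1.56 (SE 0.517) and was Present on 2 HSFA6b-OE and 4 Col-0 arrays. AT2G29670 had -0.91, AT3G08810 had -0.76 and the tropinone reductase-like AT2G29310 had -0.62. AT5G04170, an EF-hand calcium-binding protein, had -0.58, AT5G15270 had -0.46, AT4G30390 had -0.44, AT1G19740, with a domain of the LON protease, had -0.43, and AT3G15070, a RING finger protein, had -0.41. In 8 of the 10 lower genes the heat shock difference was the most negative of the 3.

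**Figure D3:**
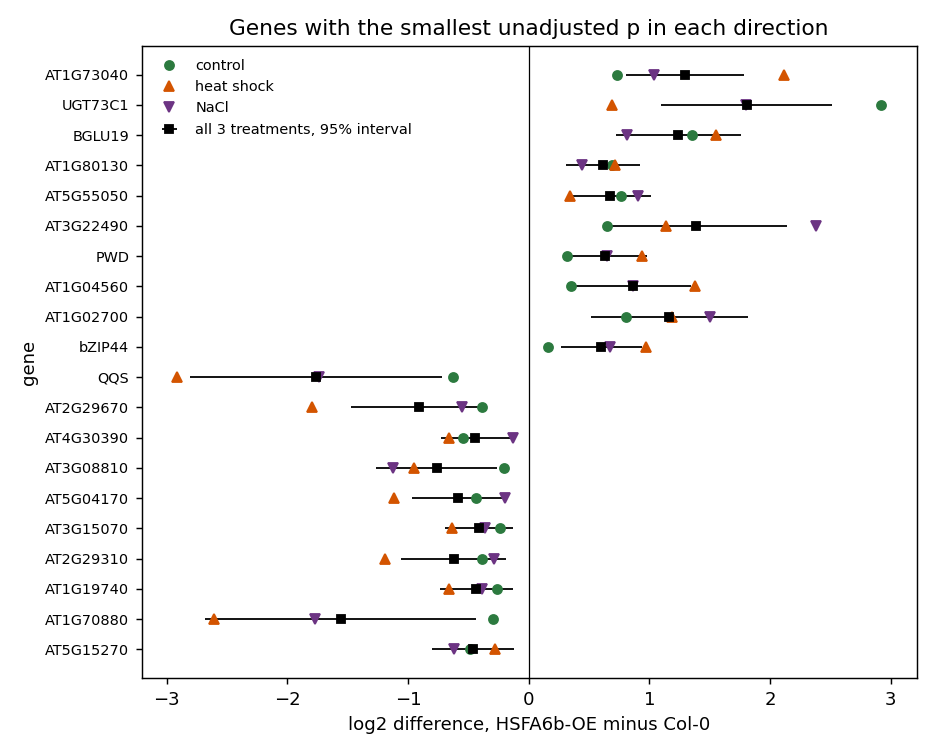
Log2 differences (HSFA6b-OE minus Col-0) of the 10 genes with the smallest unadjusted p on each side: squares with bars give the pooled value and its 95% interval, coloured symbols the 3 treatments. AT1G73040 runs from 0.73 in control to 2.11 after heat shock, and QQS from -0.63 to -2.91.

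Small heat shock proteins hold unfolded proteins in a soluble state. Of 18 in the list 14 were tested, and 0 passed. At an unadjusted p under 0.05, 4 were higher and 0 lower, beside 2.37% and 0.987% of all tested. The median difference was 0.48, beside 0.03 for all tested, and it was 1.29 in control, -0.22 after heat shock and 0.32 after NaCl. Over all treatments 13 of 14 lay above 0, beside 55.7% of all tested. In control and in NaCl, 13 of 14 lay above 0, and after heat shock 5 of 14. The genotypes did not overlap on the higher side for 8 of 14 in control, where 14.7% of all tested did not, and for 6 of 14 in NaCl, beside 12.3%. On the lower side these counts were 0 (13.6% of all tested) and 1 (6.73%). After heat shock 7 of 14 lay below without overlap, beside 20.5%, and 2 above, beside 22.9%.

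HSP21, a chaperone of chloroplasts, had the largest pooled difference of the list, 2.19 (SE 0.739, limma adjusted p = 0.991), or 1.37 without WT control 1. It read 5.5 and 81.2 in control Col-0 and 431.3 and 862.9 in control HSFA6b-OE. After NaCl it read 229.1 and 249.7 against 959.5 and 593.7. Heat-shocked seedlings read 30213.5 and 27906.8 against 30607.6 and 30033.2. The genotypes were apart in control and NaCl, and close after heat shock. HSFA6b-RD read 4.3 and 73.2 in control and 84.5 and 8.6 after NaCl.

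ATHSP22.0, of the endomembrane system, differed by 1.55 (control 2.92, heat shock -0.32, NaCl 2.04). The chloroplast member AT1G52560 differed by 1.32 (2.30, 0.02, 1.63), and HSP17.6II, of the cytosolic class II, by 0.72 (1.78, -0.24, 0.63). The median of the list in HSFA6b-RD against the same Col-0 arrays was -0.77 in control, -0.38 after heat shock and -2.18 after NaCl. Without the control arrays the median in HSFA6b-OE was 0.23, and it stayed above 0 in all 27 alternative fits.

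The probe set 247691_at, described as heat shock protein 18, rose in control seedlings. It read 133.2 and 159.3 in control Col-0 and 965.3 and 1101.1 in control HSFA6b-OE, a difference of 2.82 (SE 0.252, limma adjusted p = 0.00605 in control). Heat-shocked seedlings read 37314.5 and 38453.4 against 32699.0 and 33118.0, and after NaCl 672.5 and 683.6 against 1287.7 and 800.4. The order of the arrays thus turned after heat shock, where the difference was -0.20 (SE 0.252), smaller than its SE. The test of variation between treatments gave a limma adjusted p of 0.294. Among the 64 tested probe sets described as heat shock proteins, which include 258325_at, 7 were higher and 1 lower at an unadjusted p under 0.05, beside 2.37% and 0.987% of all tested, and the median was 0.11.

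Over all treatments, larger chaperones lay on both sides of 0. Of 12 tested members of the HSP70, HSP90, HSP100 and co-chaperone list, 0 passed, and 6 lay above and 6 below 0. Their median was -0.01, with a range of -0.09 to 0.14 across the alternative fits. By treatment the median was 0.22 in control, -0.16 after heat shock and 0.02 after NaCl. In control 9 of 12 lay above 0 (50.5% of all tested), after heat shock 3 (51.9%) and after NaCl 8 (58.1%). Without overlap, 4 lay above and 0 below in control, beside 14.7% and 13.6% of all tested. After heat shock 0 lay above and 6 below, beside 22.9% and 20.5%, and after NaCl 0 and 1, beside 12.3% and 6.73%. HSP101 read 30.2 and 83.8 in control HSFA6b-OE, 33614.8 and 33720.5 after heat shock and 15304.7 and 13085.9 after NaCl, with a pooled difference of -0.10 (95% interval -0.61 to 0.41). The interval was that of limma, and array weights turned the sign (0.19). HSA32, needed to keep acquired heat tolerance, was at 0.54 (SE 0.250, limma adjusted p = 0.991).

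Among heat shock factors named in the tables or descriptions, HSF4 (HSFB1) read 181.0 and 299.7 in control Col-0 and 328.6 and 449.0 in control HSFA6b-OE. In heat-shocked seedlings it was 17433.3 and 19912.6 against 17100.2 and 18951.2, and after NaCl 1099.0 and 1512.9 against 1752.1 and 2633.0. Its pooled difference was 0.47 (SE 0.197, limma adjusted p = 0.991). HSF3 was at -0.10 and HSF1 at -0.06. Of 23 tested probe sets described as heat shock factors, 1 passed, which was 258325_at, and the median was 0.17.

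**Figure D4:**
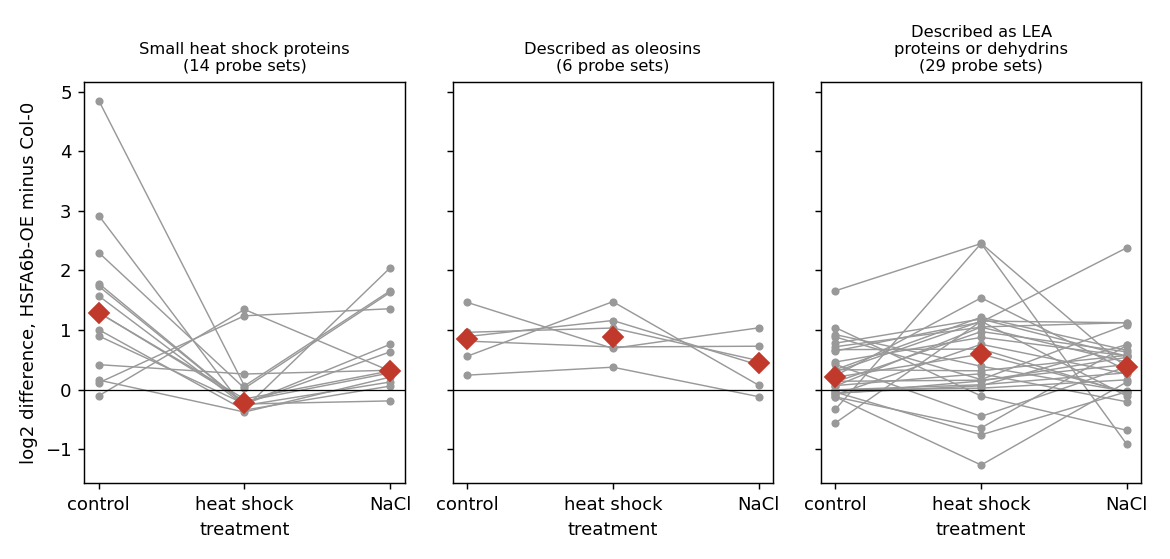
Log2 difference (HSFA6b-OE minus Col-0) by treatment for each tested member of 3 lists; grey lines join a probe set's 3 values and red diamonds are medians. Small heat shock proteins have a median of 1.29 in control and -0.22 after heat shock, while the oleosin medians are 0.85, 0.88 and 0.45.

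DREB2A, which binds dehydration-responsive elements and acts in drought and heat, differed by -0.11 (95% interval of limma -0.56 to 0.34). By treatment its differences were 0.40 in control, -0.90 after heat shock and 0.17 after NaCl. DREB2B was at 0.20, and 0 of the 4 tested members of the DREB2 and CBF list passed. Of 9 tested ABA and osmotic stress genes 0 passed, 7 lay above 0, beside 55.7% of all tested, and the median was 0.30. Without OE NaCl 2 this median was -0.03. LTI65 (RD29B), an ABA-responsive gene, differed by 0.92 (control 0.70, heat shock 1.45, NaCl 0.62, SE 0.374, limma adjusted p = 0.991). LTI78 (RD29A) was at 0.35 and GEA6 (EM6), a LEA protein of seeds, at 0.52. Of the 4 tested genes of ABA synthesis and signalling, ABF3, a transcription factor of the ABA response, was the largest at 0.30 and changed sign to -0.01 with array series as a block.

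Proteins of seeds were followed through lists built on descriptions, in which 0 probe sets passed. Oleosins coat oil bodies in seeds. Of 8 probe sets described as oleosins 6 were tested, all 6 lay above 0 (55.7% of all tested did), 4 had an unadjusted p under 0.05 (2.37% of all tested were higher at that level), and the median was 0.79. The probe set 249353_at read 1358.8 and 1881.1 in control Col-0 and 3568.0 and 2216.6 in control HSFA6b-OE. In heat-shocked seedlings it was 1224.9 and 1645.7 against 2262.9 and 2404.9, and after NaCl 245.2 and 171.1 against 385.1 and 299.2. The genotypes did not overlap in any treatment, and the pooled difference was 0.75 (SE 0.165, limma adjusted p = 0.928). AT3G01570 was at 0.82 and AT2G25890 at 0.70. The oleosin median in HSFA6b-RD was -0.33 in control, 0.24 after heat shock and 0.23 after NaCl.

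Both probe sets described as alpha-TIP, a water channel of the vacuoles that store seed protein, were non-overlapping on the higher side in every treatment, as 0.424% of all tested were, at 0.83 (260088_at) and 0.48 (261448_at). Of 29 tested probe sets described as LEA proteins or dehydrins, 26 lay above 0, beside 55.7% of all tested. At an unadjusted p under 0.05, 5 were higher and 0 lower, beside 2.37% and 0.987%, and the median was 0.43. These counts include AT3G22490, the largest at 1.39, which was Present on 2 HSFA6b-OE and 1 Col-0 arrays. It could thus pass the Present filter only through HSFA6b-OE, and such members were not set apart. AT3G17520, LEA-like, was at 0.74 (control 0.34, heat shock 1.22, NaCl 0.66), and AT3G15670, a LEA76 homologue, at 0.64 (0.46, 0.88, 0.57). The LEA median in HSFA6b-RD was -1.07 in control, 0.04 after heat shock and 0.24 after NaCl. Storage proteins were spread to both sides. Of 14 tested probe sets so described, 8 lay above 0 and 6 below, near the 55.7% of all tested that lay above 0. At an unadjusted p under 0.05, 2 were higher and 0 lower, beside 2.37% and 0.987% of all tested. The median was 0.17, or -0.02 with probe sets Present on all 12 arrays. The largest was a cruciferin, 253767_at, at 1.52 (SE 0.605). The 4 seed albumin genes SESA1 to SESA4 were not tested because none was Present on both arrays of a group. The lists built on descriptions were chosen after their values were seen.

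Other lists held few tested members, and 0 passed in any of them. All 4 tested flavonoid genes lay above 0 after heat shock without overlap, beside 22.9% of all tested. So did 3 of 3 jasmonate genes and 3 of 4 glucosinolate genes, with 0 below in either list. WT heat 1 is in the second array series and both HSFA6b-OE heat arrays are in the first. Genotype and array series are thus partly mixed in the heat shock counts. Chalcone synthase TT4, the first enzyme of flavonoid synthesis, was at 1.02 over all treatments and 2.16 after heat shock, and HSFA6b-RD was at 1.31 after heat shock. Without WT NaCl 2 the TT4 value over all treatments was 0.65, and without WT NaCl 1 it was 1.59. In the auxin response list, 7 of 8 tested members lay below Col-0 without overlap after heat shock (20.5% of all tested), and IAA29, a repressor of auxin response, was at -0.90 over all treatments, or -0.34 without WT heat 1. After heat shock it was Present on 0 HSFA6b-OE and 1 Col-0 arrays, so its level there was near background. The clock gene CCA1 was at 1.15 (SE 0.880). Its replicates lay far apart: heat-shocked Col-0 read 58.9 and 1604.4, against 1779.4 and 1861.1 in HSFA6b-OE, and without WT heat 1 the difference was 0.38. The largest differences of the remaining lists were -0.27 for SOS2, a kinase of sodium tolerance, -0.27 for STZ, a zinc finger repressor, 0.30 for PR5, a defence protein, 0.15 for PYE, an iron regulator, 0.32 for SQD1, of sulfolipid synthesis, 0.76 for CYP83A1, of glucosinolate synthesis, -0.42 for TCH4, a xyloglucan enzyme, -0.24 for LHCB4.1, 0.54 for SCR, 0.58 for ANT, an organ growth factor, and -0.36 for ACT8, an actin used as a reference. Single arrays moved several of these: CYP83A1 ran from 0.42 (without WT NaCl 2) to 1.18 (without WT NaCl 1), TCH4 from -0.82 (without WT control 2) to -0.11 (without WT control 1), and SCR from 0.09 (without WT heat 2) to 0.73.

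No probe set passed the test of whether the genotype difference varied between treatments (0 of 17228 by limma), and 632 (3.67%) had an unadjusted p under 0.05, below the 5% expected if nothing differs. JMT, which methylates jasmonic acid, read 2.8 and 6.1 in heat-shocked Col-0, both Absent, and 65.5 and 83.5 in heat-shocked HSFA6b-OE, at least 8.41-fold higher. In control it read 22.4 and 42.8 against 26.9 and 25.9, and after NaCl 100.5 and 64.7 against 53.9 and 49.6. TET6, a tetraspanin, read 6.6 and 18.8 against 66.6 and 106.1 after heat shock, at least 6.43-fold higher in HSFA6b-OE. AT2G32140, described as a disease resistance protein, read 1.1 and 1.0 in control Col-0, both Absent, and 14.3 and 19.7 in control HSFA6b-OE, of which 1 was Present. Its mean was at least 2.11-fold higher there, and the limma adjusted p of 0.0201 in control belongs to the difference of these signals near background. AT5G66070 was at -1.47 after heat shock and 0.27 in control, and SWEET14, a sugar transporter, was Absent on all NaCl arrays. The limma adjusted p of this test was 0.464 for JMT and AT2G32140 and 1 for the other 3.

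Within single treatments, 3 probe sets were higher in control (0.0174% called), 2 after heat shock (0.0116%) and 0 after NaCl, and 0 were lower in any by limma. In NaCl 282 probe sets (1.64%) had an unadjusted p under 0.05, in control 146 (0.847%) and after heat shock 2084 (12.1%). The 3 in control were 258325_at, 247691_at and AT2G32140. The 2 after heat shock were 258325_at and 247946_at, described as a putative protein, which read 93.0 and 102.9 in Col-0 and 757.5 and 699.1 in HSFA6b-OE (difference 2.90, limma adjusted p = 0.0171).

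The heat shock count depended on single arrays. With WT heat 2 left out it was 241 higher and 182 lower, with WT heat 1 left out 16 higher, and with OE heat 1, OE heat 2 or any of the 4 control arrays left out 0 higher. The array series moved with it: with the series as a block the count was 16 higher and 18 lower, and on first-series arrays only, with 1 Col-0 heat array left, 89 higher and 29 lower. The 3 control calls became 0 without WT control 1, OE control 1 or OE control 2, and 15 without WT control 2. In NaCl, 4 were higher without WT NaCl 1 and 1 without WT NaCl 2. Leaving out WT heat 2 also gave 23 probe sets in the test of variation between treatments, and leaving out WT control 2 gave 1. A lone array was taken to vary like the other groups.

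**Figure D5:**
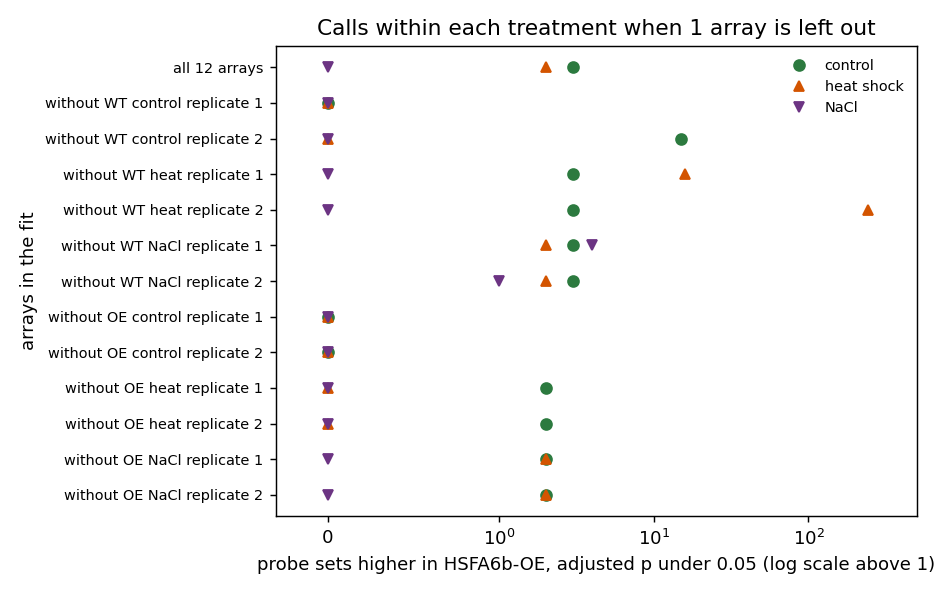
Number of probe sets higher in HSFA6b-OE at a limma adjusted p under 0.05 (x axis, log scale above 1) in each treatment, with all 12 arrays and with each array left out (y axis). The heat shock count runs from 0 to 241.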

How the data were processed

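Biotin-labelled RNA of 12 seedling samples (6 HSFA6b-OE, 6 Col-0) was hybridised to Affymetrix arrays, and 6 HSFA6b-RD arrays were read for description. Per the submitters' processing notes, MAS5 was used. The version, build and other steps are not given in the sources used here. The deposited intensity (Signal) is linear, and its mean, trimmed by 2% at each end, was 500.0 to 500.1 on every array. The deposited detection p-value and its call came with each signal, and the highest p of a Present call was 0.0474. The series-wide table repeats these signals without a difference.

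From these, signals were floored at 0.1 and taken to log2. There were 67 tested values below 1, including 1 zero. Of 22746 probe sets other than the 64 controls, 5518 failed the Present filter. The models were run in R 4.3.3 by limma 3.58.1 (lmFit, eBayes with intensity trend; 8 residual degrees of freedom for genotype plus treatment, 6 for the 6 group means), and p-values were adjusted by Benjamini-Hochberg over all 17228 probe sets. The fit was tested on simulated data. Python 3.11.15, pandas 2.3.3, numpy 2.4.6 and matplotlib 3.10.9 were also used. The number of arrays limits precision.

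In the annotation given, 13513 probe sets have 1 symbol, 503 have several and 8730 have none; 13436 were matched to RefSeq genes of TAIR10.1. For list genes, 71 further probe sets were named from the gene stated in their description, which was added after the data were seen. Named were probe sets past the threshold, the 10 smallest p on each side when fewer than 5 passed, the 5 smallest p of the genotype-by-treatment test, and each list's largest difference. The members and lists were chosen with earlier results of these data known. Replicate numbers were checked as pairs. The deviations of same-numbered arrays correlated at 0.406 in control, 0.058 after heat shock and 0.633 in NaCl. Arrays of the same number thus moved together to a degree in control and NaCl, which the main fit does not model. In NaCl both number 1 arrays are in the second array series and both number 2 arrays in the first. Replicate number and array series therefore cannot be told apart there. With treatment by number as blocks, 768 probe sets were higher and 345 lower at an unadjusted p under 0.05. The main fit gave 409 and 170. Alternatives were other normalization, floor, filters, variance model, array weights, blocks and left-out arrays.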

Additional observations from a re-analysis of the deposited data

Results flagged for a closer look

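Of 51 named probe sets, 9 are listed here. In HSFA6b-RD, which enters no test, 258325_at lay above Col-0 on every array of each treatment, by 6.20 log2 units on average, and SQD1 by 0.31. In 7 others every HSFA6b-OE array lay above Col-0 in one treatment and below it in another, and none passed the test of that difference (limma adjusted p 0.294 to 1). The gap between the treatments was 4.80 log2 units for JMT (heat shock above, NaCl below), 3.53 for TET6 (heat shock above, control below) and 3.23 for 247946_at (heat shock above, control below). It was 3.03 for 247691_at (control above, heat shock below), 2.86 for SWEET14 (heat shock above, NaCl below), 1.74 for AT5G66070 (control above, heat shock below) and 1.30 for DREB2A (control above, heat shock below). Several gaps rest on signals not called above background. Both heat-shocked Col-0 arrays were Absent for JMT and TET6, whose heat shock differences are bounded at 3.07 and 2.68 log2 units, and SWEET14 was Absent on all heat and NaCl arrays. With 2 arrays a group, no array could be tested as apart from its group.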

How the results depend on the processing

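Of 1355 values of the 51 named probe sets under 27 alternatives, 14 changed sign, 2 fell back over the threshold and 0 passed anew. The 2 were 258325_at without control arrays (4.47) and without heat arrays (4.78), where the count over all treatments was 0. Without NaCl arrays the count was 2, adding 251428_at, described as like beta-glucosidases, and on first-series arrays only it was also 2, adding 247718_at, described as like a lipid-transfer protein. Leaving out 1 array gave 1 higher and 0 lower each time. Signs changed with array weights (HSP101 0.19, DREB2A 0.13), with array series as a block (ABF3 -0.0101), on first-series arrays (ABF3 -0.10), with treatment by series as blocks, chosen after seeing the data (DREB2A 0.0319), without heat arrays (JMT -0.44, AT5G66070 0.0193, TET6 -0.0092, PR5 -0.13, IAA29 0.0921, DREB2A 0.28) and without NaCl arrays (SWEET14 0.41). With 1 array left out, DREB2A ran from -0.23 to 0.0319 and HSP101 from -0.32 to 0.049. The cause was not tested.

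Within treatments, the heat shock count was 1 higher with probe sets Present on all 12 arrays, 16 higher and 18 lower with array series as a block, and 89 higher and 29 lower on first-series arrays. The replicate block, with the number as 1 term, gave 13 higher and 11 lower after heat shock. As 6 blocks or as 1 term, the replicate block left 1 probe set higher over all treatments. The control count was 5 without the intensity trend. Leaving out 1 array gave 0 to 241 higher and 0 to 182 lower after heat shock, 0 to 15 higher in control, 0 to 4 higher in NaCl, and 0 to 23 in the genotype-by-treatment test. Quantile normalization moved the median difference from 0.03 to 0.00 and the unadjusted split from 409 higher and 170 lower to 312 and 267. Probe sets near background have the least certain values.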
